A study of Mus musculus with 57 samples.

Results

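Stromal cells sorted from mouse bone marrow were compared with marrow that had not been sorted. The comparison used 10 of the 57 libraries of the study, 6 labelled mesenchymal stromal cell (MSC) and 4 labelled whole bone marrow (WBM). They were chosen by their labels alone, as every control library of either tissue. All came from male C57BL/6 mice, 8 weeks old when treatment began, that received a control antibody for 4 weeks. In the study the control stands beside an antibody against PAPP-A, and no library of that arm was used here. Each library came from a mouse pool, and the labels give neither the number of mice in a pool nor the markers of the sort. MSC libraries came from pools 3, 5 and 7 in batch A and pools 15, 17 and 19 in batch C. WBM libraries came from pools 1, 5 and 7 in batch A and pool 15 in batch C, so that pools 5, 7 and 15 gave both tissues. The labels do not say what a batch was. Each p-value measures the spread between these pools.

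Marrow stromal cells are rare cells that surround the sinusoids and line bone. They hold blood stem and progenitor cells in place through the chemokine CXCL12, feed them with growth factors such as stem cell factor and interleukin 7, and lay down the matrix of the marrow. Leptin receptor (Lepr) marks many of them, and they can give rise to bone-forming cells and fat cells. Unsorted marrow is mostly neutrophils and their precursors, red cell precursors and B cells. Transcripts of these and other cell types were listed to look for contaminants in the stromal libraries. Where such transcripts came from was not tested, and some members of these lists were higher in MSC. Below, residue means the summed level of a list in MSC as a percent of WBM of the same batch, whatever its source. In bulk RNA, fewer cells of a type and less RNA per cell cannot be told apart.

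Depth differed widely, with 321860 to 18445347 counts in the MSC libraries and 14980773 to 37113006 in the WBM libraries. A pair of libraries stood apart. In the MSC library of pool 7, the shallowest, 37.1% of counts fell on ribosomal RNA-like transcripts and 14.5% on immunoglobulin genes, against at most 1.82% and 0.315% in the other 5 MSC libraries. In the WBM library of pool 15, the only WBM library of batch C, haemoglobin genes took 16.6% of counts against 1.26 to 1.84% in the other 3. Log2 differences given below were recomputed with each library left out. Where this changed the fold difference itself, not its log2, by over 1.5 times, the log2 difference without that library stands beside it.

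**Figure D1:**
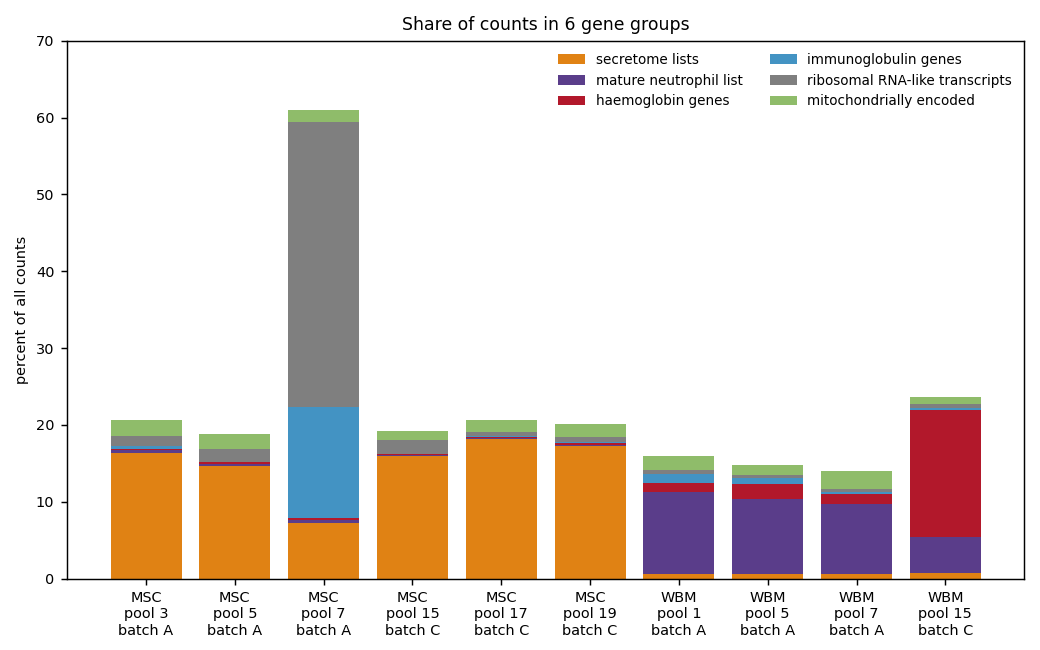
Percent of all counts in 6 groups of genes in each of the 10 control libraries (MSC and WBM, by pool). The secretome lists fill 14.6 to 18.2% of counts in 5 MSC libraries and 7.23% in that of pool 7, where ribosomal RNA-like and immunoglobulin transcripts fill 37.1% and 14.5%. Haemoglobin genes fill 16.6% of WBM pool 15.

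The defining markers followed the labels. Levels are in CPM, the share of a gene in its library scaled so that libraries can be compared. Cxcl12 (chr6:117168535-117181367, plus strand, GRCm38) ranged from 19380 to 48290 CPM in MSC, with a median of 35100. In the WBM libraries of pools 1, 5, 7 and 15, the order used throughout, it was at 13.2, 7.89, 20.1 and 76.7 CPM. The groups did not overlap, pool 7 was the lowest MSC library and pool 15 the highest WBM library. The log2 difference, MSC minus WBM, was 10.24 with a standard error (SE) of 0.594 (edgeR quasi-likelihood test, adjusted p = 8.76e-09). It was 10.86 without WBM pool 15.

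S100a8 (chr3:90668978-90670035, plus strand), a calcium-binding protein of the neutrophil cytoplasm, ranged from 190.6 to 2031 CPM in MSC, with a median of 386.7. In WBM it was at 20010, 16070, 18480 and 6537 CPM. These groups did not overlap either, and pool 7 was the highest MSC library and pool 15 the lowest WBM library. Lepr was at 2618 ± 600.0 CPM in MSC (SD, n = 6) and 1.66 ± 1.19 CPM in WBM (SD, n = 4). Of 20 marrow stromal identity genes, 19 could be tested, and 18 were higher in MSC at an adjusted p under 0.05 and none lower, with a median log2 difference of 8.73. Over all 17169 genes tested 23.1% were higher and 26.1% lower by that rule, and the median was -0.22. With the mouse pool as a replicate block over pools 5, 7 and 15 alone, 2400 genes were higher and 2764 lower. The exceptions in the list, singled out after their values were seen, were Ngfr, at 0.367 ± 0.763 CPM in MSC and 0.208 ± 0.123 CPM in WBM and too low to test, and Thy1, at 17.6 ± 7.67 CPM and 23.5 ± 7.94 CPM (edgeR adjusted p = 0.321).

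The promoters of 4 genes, 2 from either end of the comparison, are shown, each as the 250 bases before the RefSeq start site, 5′ to 3′ on the gene's strand (GRCm38.p6). Capitals mark matches to the motifs searched on either strand. Cxcl12 was read at chr6:117168285-117168534, Kitl, which encodes stem cell factor, at chr10:100015571-100015820 and S100a8 at chr3:90668821-90669070, all on the plus strand. Camp, the neutrophil cathelicidin, was read at chr9:109849457-109849706 on the minus strand.
Cxcl12: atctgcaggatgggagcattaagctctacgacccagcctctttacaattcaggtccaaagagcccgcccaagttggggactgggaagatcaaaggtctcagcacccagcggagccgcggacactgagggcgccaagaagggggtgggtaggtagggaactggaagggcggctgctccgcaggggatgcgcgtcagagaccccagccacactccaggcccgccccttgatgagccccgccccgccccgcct
Kitl: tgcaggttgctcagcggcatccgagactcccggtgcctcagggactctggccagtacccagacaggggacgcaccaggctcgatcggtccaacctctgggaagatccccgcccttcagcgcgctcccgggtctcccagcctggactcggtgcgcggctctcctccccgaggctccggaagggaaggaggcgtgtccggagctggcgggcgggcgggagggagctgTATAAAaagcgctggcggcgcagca
S100a8: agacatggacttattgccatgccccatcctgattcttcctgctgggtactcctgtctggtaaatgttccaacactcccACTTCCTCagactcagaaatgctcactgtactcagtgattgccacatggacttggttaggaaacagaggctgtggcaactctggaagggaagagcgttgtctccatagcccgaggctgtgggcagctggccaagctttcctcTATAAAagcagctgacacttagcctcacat
Camp: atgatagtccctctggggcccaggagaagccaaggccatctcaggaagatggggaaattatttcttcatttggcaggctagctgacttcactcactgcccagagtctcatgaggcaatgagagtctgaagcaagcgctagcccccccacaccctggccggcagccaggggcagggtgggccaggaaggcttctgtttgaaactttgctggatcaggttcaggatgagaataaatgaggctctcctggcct
In Kitl the capitals are TATAAA, which matches the TATA box and starts 25 bases before the start site. In S100a8 they are ACTTCCTC, the reverse complement of the PU.1 motif GAGGAAGT, which starts 172 bases before the start, and TATAAA, which starts 30 bases before it. No searched motif was in this window of Cxcl12 or of Camp. The gene starts of the GENCODE annotation lie inside the windows of Kitl (100015630), S100a8 (90668978) and Camp (109849617). Part of each of these windows is thus within the annotated gene, and bases further upstream were not searched. The windows were 64.4% G or C in Cxcl12, 69.2% in Kitl, 50.8% in S100a8 and 55.2% in Camp.

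Of the 16205 tested genes with an Ensembl identifier, 11006 had promoters in the RefSeq table, 14044 in all. They were compared between genes lower in MSC by at least 3 on the log2 scale (1303 promoters) and genes higher by at least 3 (1792 promoters). In the order lower, higher and all genes tested, the PU.1 motif was in 5.83%, 2.12% and 2.64% of promoters. The RUNX motif TGTGGT was in 16.7%, 8.71% and 11.2%, and the GATA motif AGATAA in 9.52%, 6.08% and 6.41%. The C/EBP motif TTGCNNAA was in 10.6%, 8.43% and 7.85%, and the AP-1 motif TGANTCA in 6.91%, 4.63% and 4.62%. PU.1, RUNX, GATA, C/EBP and AP-1 letters were thus most frequent before genes lower in MSC. The TEAD motif CATTCC was in 11.1%, 14.5% and 10.9%, the EBF motif TCCCNNGGG in 7.14%, 8.65% and 6.91%, and TATAAA in 8.52%, 9.21% and 7.18%. Median G and C content moved with the groups, at 54.4%, 59.2% and 59.2%, and its part in the motif shares was not tested. A match describes letters, not binding, and the shares carry no test.

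Secreted niche factors were mostly higher in MSC. Of 25 listed, 23 could be tested, and 20 were higher, 18 of them by at least 3 on the log2 scale, a size that 12.3% of all genes tested reached upward and 10.2% downward. The median log2 difference of the list was 6.53. Kitl (chr10:100015630-100100416, plus strand) ranged from 726.6 to 1731 CPM in MSC, with a median of 1143, and was at 0.524, 0.566, 1.23 and 1.695 CPM in WBM. The groups lay far apart (log2 difference 10.21, SE 0.548, edgeR adjusted p = 4.55e-09). Interleukin 7 (Il7), needed by B cell precursors, ranged from 65.1 to 117.6 CPM in MSC, with a median of 100.3, and was at 0.193, 0.255, 0.164 and 0.385 CPM in WBM. All 6 MSC libraries were above every WBM library (log2 difference 8.63, SE 0.353, edgeR adjusted p = 1.1e-09).

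The macrophage growth factor Csf1 ranged from 571.6 to 1391 CPM in MSC, with a median of 921.9, against 8.31, 6.42, 5.72 and 12.4 CPM in WBM. Il34, the other ligand of its receptor, ranged from 162.6 to 481.1 CPM in MSC, with a median of 350.6, against 0.166, 0.113, 0.164 and 0.462 CPM in WBM. In both genes pool 7 was the lowest MSC library, pool 15 was the highest WBM library, and the groups did not overlap (log2 differences 6.67 and 10.46). Angpt1, a vessel-stabilising ligand, was at 180.4 ± 41.2 CPM in MSC (SD, n = 6) and 9.74 ± 2.19 CPM in WBM (SD, n = 4), a log2 difference of 4.13.

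Spp1 (osteopontin), a matrix protein that also acts on stem cells, was at 1629, 2342 and 1097 CPM in MSC of batch A, 4877, 6195 and 4321 CPM in MSC of batch C and 15.7, 16.99, 32.4 and 38.4 CPM in WBM. Gas6, a ligand of the TAM receptors, was at 1991, 1757 and 1478 CPM, 3471, 4319 and 3646 CPM and 2.02, 1.47, 3.45 and 4.54 CPM. In both, every batch C library was above every batch A library of MSC, and no MSC library overlapped WBM (log2 differences 6.53 and 9.60). Per kilobase of annotated exon, mean MSC levels were 4223 CPM for Cxcl12, 2069 for Spp1, 1090 for Gas6, 196.7 for Kitl, 178.2 for Csf1, 34.7 for Angpt1 and 17.5 for Il7. The member that was lower was Tgfb1, a cytokine made by many blood cells, at 32.5, 46.4, 27.9, 54.2, 78.96 and 49.1 CPM in MSC pools 3, 5, 7, 15, 17 and 19 and 226.1, 176.9, 212.8 and 91.05 CPM in WBM (log2 difference -1.90, SE 0.365, edgeR adjusted p = 0.000634), and differed by -2.51 without WBM pool 15. Over all alternative fits the Tgfb1 difference lay between -2.51 and -0.72.

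**Figure D2:**
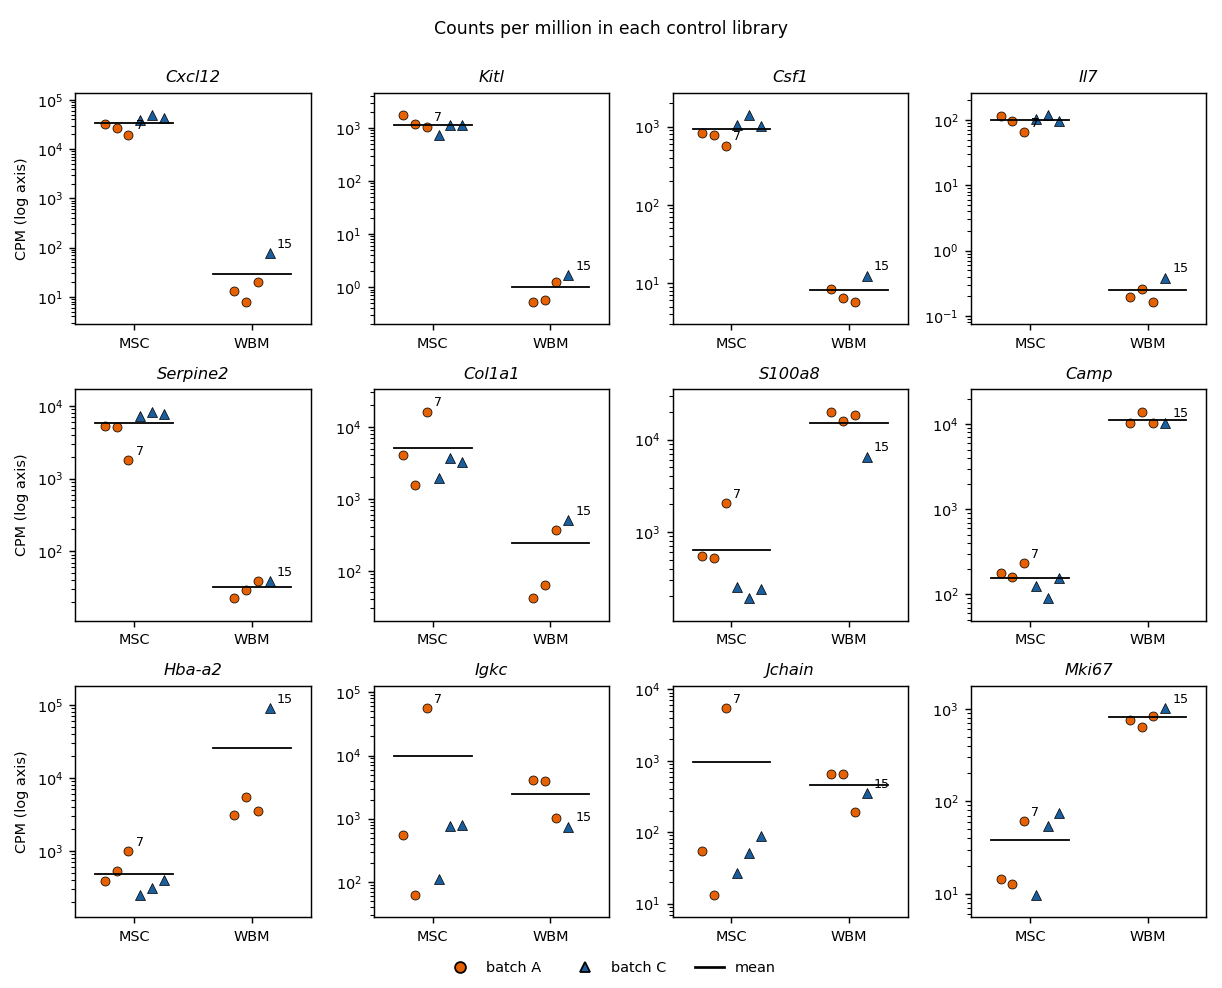
CPM of 12 genes in each control library, by tissue (log axis; circles batch A, triangles batch C, lines the mean of the tissue). Cxcl12 spans 19380 to 48290 CPM in MSC and 7.89 to 76.7 CPM in WBM, S100a8 and Camp are higher in every WBM library, and Igkc and Jchain reach 56080 and 5460 CPM in MSC pool 7, above every other library.

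Among receptors of blood cells, 4 were looked at beside these ligands, and all 4 were lower in MSC, while Axl, a receptor of GAS6, was higher (2.88, and 3.47 without MSC pool 7 and 2.14 without WBM pool 15). Cxcr4, the receptor of CXCL12, ranged from 4.44 to 13.9 CPM in MSC, with a median of 9.06, and was at 226.0, 200.8, 183.4 and 532.7 CPM in WBM. The groups did not overlap, and pool 15 was the highest WBM library (log2 difference -5.41, SE 0.284, edgeR adjusted p = 3.81e-09). Csf1r, the receptor of CSF1 and IL-34, was at 2.06 ± 1.28 CPM in MSC (SD, n = 6) and 52.8 ± 28.8 CPM in WBM (SD, n = 4), a log2 difference of -3.98 (-4.61 without WBM pool 15). Flt3, a receptor of early progenitors, was at 0 in 3 of the 6 MSC libraries and at 11.6, 11.2, 8.703 and 20.3 CPM in WBM (log2 difference -6.18, and -7.89 without MSC pool 17). Kit, the receptor of stem cell factor, was at 15.3, 8.88 and 9.29 CPM in MSC of batch A, 42.4, 35.4 and 51.7 CPM in MSC of batch C and 68.3, 67.2, 71.4 and 69.7 CPM in WBM. Its MSC libraries split by batch, and all were below WBM (log2 difference -1.90, SE 0.366, edgeR adjusted p = 0.000641). Its difference was -2.55 without WBM pool 15.

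Extracellular growth factor binding proteins and their proteases followed the niche factors. Of 15 tested, 14 were higher and 1 was lower, with a median log2 difference of 7.53. Igfbp4, which sequesters insulin-like growth factors (IGFs), was at 4884, 4821 and 3234 CPM in MSC of batch A, 10940, 12640 and 9769 CPM in MSC of batch C and 264.5, 295.5, 302.1 and 339.9 CPM in WBM. Every MSC library was above every WBM library, and batch C was above batch A (log2 difference 4.25, SE 0.338, edgeR adjusted p = 1.64e-07). Igfbp3, the main IGF carrier of plasma, and Igfbp7 had log2 differences of 10.29 and 9.56, and Igfbp7 was at 8.85 without WBM pool 15. Ltbp2, a relative of the latent TGF-beta binding proteins, was among the 12 genes with the smallest p that were higher, at 782.2 ± 210.0 CPM in MSC and 0.309 ± 0.146 CPM in WBM. The secreted serine proteases Htra1 and Htra3 had differences of 11.07 and 7.80. The member that was lower was Stc1, an inhibitor of PAPP-A, at 1.62, 0, 0, 8.85, 3.64 and 1.76 CPM in MSC and 2.24, 9.53, 2.71 and 62.5 CPM in WBM with overlapping groups (log2 difference -3.05, SE 0.705, edgeR adjusted p = 0.00252). That call rested on WBM pool 15, without which it was -2.49 (adjusted p = 0.102), and the difference was -4.02 without MSC pool 3.

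Secreted modulators of BMP and WNT signalling were also higher, in 20 of 22 tested, with 1 lower and a median of 7.99. Chrdl1, a chordin-like BMP antagonist, ranged from 576.2 to 1057 CPM in MSC, with a median of 734.7, and was at 0.1104, 0.113, 0.1095 and 0.385 CPM in WBM. The tissues did not overlap (log2 difference 12.14, SE 0.514, edgeR adjusted p = 1.32e-09). The BMP antagonist Grem1 had a log2 difference of 10.63, follistatin (Fst), which binds activins, 8.88, and the WNT antagonists Sfrp1 and Sfrp4 10.03 and 9.26. The member that was lower was Inhba, which encodes the activin A subunit, at 3.64 ± 1.78 CPM in MSC and 21.7 ± 1.49 CPM in WBM (log2 difference -2.90, SE 0.484, edgeR adjusted p = 0.0002).

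All 18 collagens tested were higher, with a median of 7.59, and so were 33 of 36 matrix glycoproteins and proteoglycans, with none lower and a median of 7.27. Col6a1, of the microfibrillar type VI collagen, ranged from 483.3 to 1185 CPM in MSC, with a median of 946.1, against 0.276, 0.0848, 0.383 and 0.385 CPM in WBM. It differed by 11.46 (SE 0.561), with no overlap. Col1a1, of the type I collagen of bone, ranged from 1539 to 16190 CPM in MSC, with a median of 3454, and was at 41.5, 62.9, 373.9 and 506.2 CPM in WBM. The highest MSC value was that of pool 7, the other 5 lay between 1539 and 4072 CPM, and WBM pools 7 and 15 were above pools 1 and 5. Its log2 difference was 4.34 (SE 1.033, edgeR adjusted p = 0.005), 3.66 (adjusted p = 0.00153) without MSC pool 7 and 5.47 (adjusted p = 0.013) without WBM pool 15. Col1a2 was at 16980 CPM in pool 7 and 3030 to 5998 CPM in the other MSC libraries. Bgn (biglycan), a small proteoglycan of bone, was at 3611 ± 1170 CPM in MSC and 4.71 ± 3.45 CPM in WBM, and Prelp, which anchors basement membranes, differed by 11.05 (SE 0.395). Fibronectin (Fn1) was at 127.2 ± 59.1 CPM and 113.3 ± 62.4 CPM with overlapping groups (log2 difference -0.06, SE 0.527, edgeR adjusted p = 0.937).

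Matrix enzymes and inhibitors were higher in 19 of 22 tested and lower in 3, with a median of 6.65. The serine protease inhibitor Serpine2 ranged from 1770 to 8257 CPM in MSC, with a median of 6178, against 22.6, 28.98, 38.7 and 38.6 CPM in WBM. Pool 7 was the lowest MSC library and the groups did not overlap (log2 difference 7.25, SE 0.454, edgeR adjusted p = 1.64e-08). The collagenases Mmp13 and Mmp14 had log2 differences of 7.36 and 4.18, the former 8.23 without WBM pool 7. Those that were lower were Mmp8 (-5.16, and -3.89 without WBM pool 15) and Mmp9 (-4.72), the collagenase and gelatinase of neutrophil granules, and Plau (urokinase, -3.18). Plau was -2.58 without MSC pool 5 and -4.39 without WBM pool 15, and lay between -4.39 and -1.19 over all alternative fits. With the replicate block over pools 5, 7 and 15, Plau differed by -2.62 (edgeR adjusted p = 0.081).

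Chemokines and cytokines were split, with 8 of 21 tested higher and 10 lower, and a median of 1.14. Cxcl14 (10.49), Cxcl1 (9.57) and Ccl19 (8.77) were higher beside Cxcl12, with Cxcl1 at 10.83 without WBM pool 5 and 8.69 without WBM pool 15. Cxcl1, a neutrophil attractant, was at 49.3, 29.6 and 9.29 CPM in MSC of batch A and 664.8, 240.4 and 197.4 CPM in MSC of batch C, against 0.0276, 0.1697, 0.0274 and 0.07703 CPM in WBM. Ccl2 and Ccl7, which draw monocytes, were higher by 2.02 and 4.50 with overlapping groups, and Ccl7 was at 5.17 without WBM pool 5 and 3.88 without WBM pool 15. Ccl4 was at 0, 0, 0, 0.0681, 0.411 and 0.0549 CPM in MSC and 9.16, 13.5, 10.7 and 62.1 CPM in WBM (log2 difference -8.49, SE 0.692, edgeR adjusted p = 2.08e-07), and differed by -9.86 without MSC pool 17 and -10.68 without WBM pool 15. Osm, oncostatin M, ranged from 1.12 to 13.9 CPM in MSC, with a median of 5.596, and was at 197.2, 249.1, 184.0 and 874.5 CPM in WBM (log2 difference -6.30, SE 0.712, edgeR adjusted p = 1.2e-05), and differed by -7.12 without MSC pool 3 and -5.15 without WBM pool 15. Its receptor subunit Osmr lay the opposite way, at 143.2 ± 40.2 CPM in MSC and 0.04001 ± 0.0333 CPM in WBM, a log2 difference of 11.92.

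Complement genes divided by component. Of 14 tested, 7 were higher and 5 lower, with a median of 4.30. The proteases C1s1 (11.30), C1ra (7.93) and C2 (8.44), C4b (10.63) and the regulator Serping1 (11.21) were among those higher. Serping1, the C1 inhibitor, ranged from 1617 to 5024 CPM in MSC, with a median of 3581, against 1.08, 0.566, 1.42 and 2.003 CPM in WBM, with no overlap. The C1q chains, made by macrophages, were lower, with log2 differences of -4.94 for C1qa, -3.04 for C1qb and -5.33 for C1qc. They were -5.87 without WBM pool 15 for C1qa, -2.35 without MSC pool 5 and -4.05 without WBM pool 15 for C1qb, and -5.95 without MSC pool 19 and -6.07 without WBM pool 15 for C1qc. The same held for Cfp, properdin (-4.09), and C5ar1, an anaphylatoxin receptor (-5.03). C3, the central component, was at 967.2 ± 342.0 CPM in MSC and 554.2 ± 69.3 CPM in WBM (log2 difference 0.68, SE 0.325, edgeR adjusted p = 0.0981), and differed by 1.13 (adjusted p = 0.00153) without MSC pool 7.

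Transcripts of proteins better known from liver and fat were abundant in MSC. Of 15 plasma-type proteins and lipid carriers, 13 were higher and none lower, with a median of 5.68. Adiponectin (Adipoq) ranged from 543.7 to 2032 CPM in MSC, with a median of 1348, and was at 0.331, 0.198, 0.958 and 0.693 CPM in WBM. The groups did not overlap (log2 difference 10.90, SE 0.588, edgeR adjusted p = 4.78e-09), and the difference was 11.49 without WBM pool 7. Angiotensinogen (Agt) differed by 11.53 (12.27 without WBM pool 7) and ceruloplasmin (Cp) by 9.65. Haptoglobin (Hp), which binds free haemoglobin, was at 3183, 3948 and 2082 CPM in MSC of batch A, 8363, 8531 and 7578 CPM in MSC of batch C and 1169, 829.2, 955.4 and 443.1 CPM in WBM. It was present in both tissues and higher in every MSC library (log2 difference 2.30, SE 0.461, edgeR adjusted p = 0.000874), and the difference was 1.61 without WBM pool 15.

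Together the 192 genes of these secretome lists took 16.4, 14.6, 7.23, 16.0, 18.2 and 17.3% of counts in MSC pools 3, 5, 7, 15, 17 and 19. In WBM they took 0.639, 0.597, 0.637 and 0.707%, so every MSC library was above every WBM library in both batches. In summed CPM, which is scaled, MSC pool 7 was not the lowest, at 108100 against 103200 in MSC pool 5. Of the 182 tested, 149 were higher and 20 lower, with a median of 6.67. Transcripts of the secretory route were higher in 23 of 25 and lower in 1, with a median of 1.91. Without WBM pool 15, 19 of 25 were higher. Fkbp10, a collagen chaperone, and Kdelr3, a retrieval receptor of the Golgi, differed by 8.76 (9.71 without WBM pool 7) and 6.89, and P4ha1, a collagen prolyl hydroxylase subunit, by 3.35. The member that was lower was Sec61b, a subunit of the channel into the endoplasmic reticulum, at 61.3 ± 28.4 CPM in MSC and 286.8 ± 68.4 CPM in WBM (log2 difference -2.57).

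**Figure D3:**
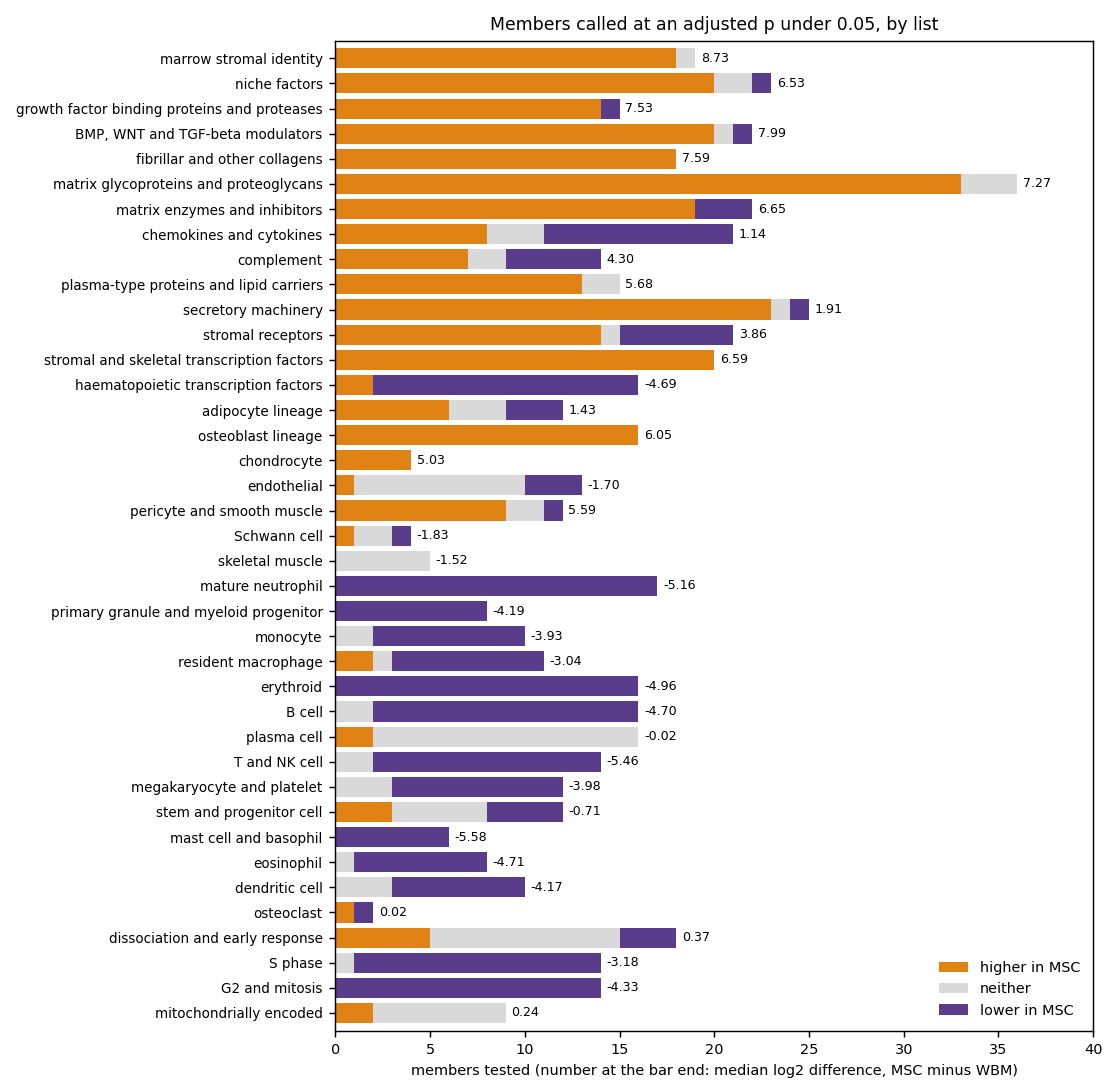
Members of each list that were higher in MSC, lower in MSC or neither, at an adjusted p under 0.05 by edgeR (bar length: members tested). All 18 collagens, 16 osteoblast genes and 20 stromal transcription factors tested are higher, all 17 neutrophil, 16 erythroid and 14 mitotic genes lower, and 14 of 16 plasma cell genes neither.

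**Figure D4:**
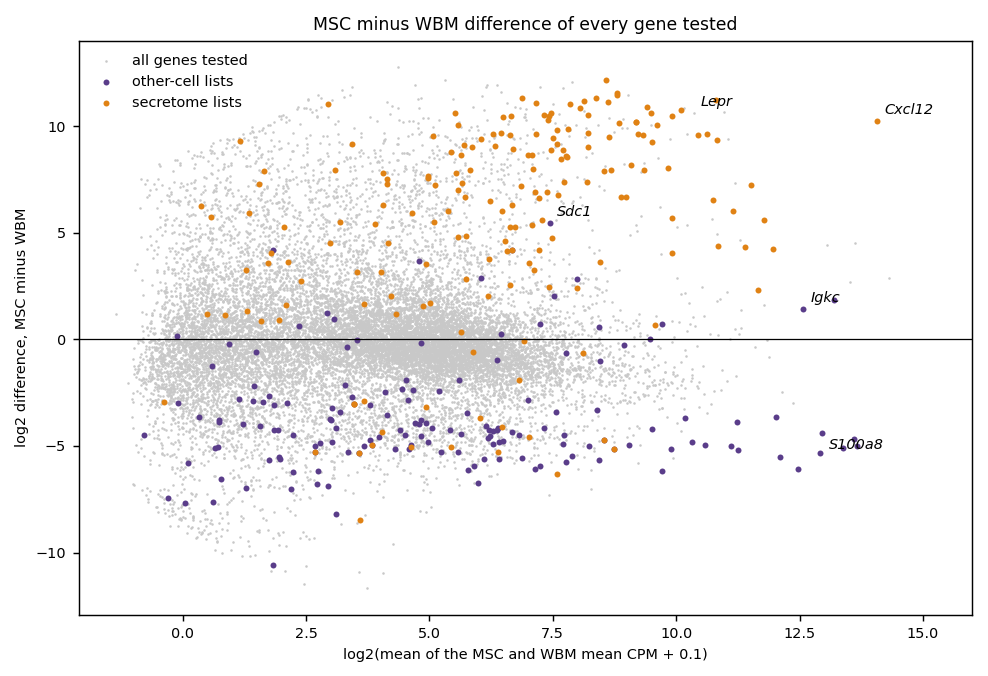
Log2 difference, MSC minus WBM, of the 17169 genes tested, with the secretome and other-cell lists coloured. Secretome genes have a median of 6.67 and other-cell genes a median of -4.27, against -0.22 for all genes.

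All 20 stromal and skeletal transcription factors were higher in MSC, with a median of 6.59. Ebf3 and Foxc1, which maintain the niche state of marrow stroma, differed by 10.40 (11.08 without WBM pool 15) and 8.92 (9.93 without WBM pool 15). Ebf1, also a B cell factor, differed less, at 406.0, 440.3, 264.9, 1095, 581.9 and 717.0 CPM in MSC and 65.2, 114.8, 66.01 and 383.3 CPM in WBM, where pool 15 was highest and the groups overlapped (log2 difference 1.78, and 0.95 to 2.58 over all alternative fits). Of 16 haematopoietic factors 14 were lower, with a median of -4.69, among them Spi1, which encodes PU.1 (-4.74, and -5.65 without WBM pool 15). Those that were higher were Runx1 and Tcf7. Runx1, a regulator of blood stem cells, ranged from 278.8 to 572.9 CPM in MSC, with a median of 403.9, and was at 52.6, 55.4, 51.2 and 55.8 CPM in WBM, with no overlap (log2 difference 2.90, SE 0.258, edgeR adjusted p = 5.23e-07). Tcf7, a T cell factor, was at 17.6, 4.44, 18.6, 2.45, 5.41 and 10.6 CPM in MSC and 4.53, 2.35, 3.06 and 2.46 CPM in WBM with overlapping groups, and its call was lost without MSC pool 3 or any WBM library, and with the replicate block (adjusted p = 0.418).

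Of 21 stromal receptors tested 14 were higher and 6 lower, with a median of 3.86. Pth1r, the parathyroid hormone receptor, and Il6st, the shared subunit of IL-6 family receptors, differed by 7.28 and 3.86. Those that were lower included the blood cell receptors Csf3r (-5.07) and Gpr84 and the IGF1 receptor Igf1r (-1.48). Gpr84 was at 0 in all 6 MSC libraries and at 18.2, 10.1, 13.3 and 2.696 CPM in WBM. With 3 counts over the 6 MSC libraries taken as the limit of a count of 0, the WBM mean was 212-fold that limit. The limit pools both batches and covers counting error only.

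Osteoblast lineage genes were higher in 16 of 16 tested, with a median of 6.05. Ibsp (bone sialoprotein) ranged from 2231 to 5306 CPM in MSC, with a median of 4426, and was at 1.85, 1.89, 6.13 and 15.4 CPM in WBM. Bglap (osteocalcin) was at 780.7 CPM in MSC pool 7 and 143.7 to 328.7 CPM in the other 5, the same library that was highest in type I collagen. Adipocyte lineage genes were divided, with 6 of 12 tested higher, among them Adipoq, Lpl (5.68) and Pparg (4.37), and 3 lower, Cd36 (-4.02, and -4.61 without MSC pool 3), Lipe (-1.59) and Retn (-3.33). The call of Lipe was lost without WBM pool 15 (adjusted p = 0.0557), and that of Retn when any library other than MSC pools 15 and 19 was left out. The difference of Retn was -4.42 without MSC pool 15 and -4.22 without WBM pool 15. With the replicate block the adjusted p was 0.233 for Lipe and 0.26 for Retn. The fat droplet genes Plin1 and Cidec, named after their values were seen, were at 0.276 and 0 CPM on average in MSC and could not be tested.

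Of 10 chondrocyte genes 4 could be tested and all 4 were higher, with Chad at 57.5 ± 47.6 CPM in MSC and 0.0812 ± 0.0444 CPM in WBM. Pericyte and smooth muscle genes were higher in 9 of 12 and lower in 1. Notch3, a receptor of mural cells, was at 207.6 ± 26.8 CPM in MSC and 0.279 ± 0.0835 CPM in WBM, while Acta2, smooth muscle actin, was at 4.01 ± 3.43 CPM and 12.02 ± 1.49 CPM (log2 difference -2.06), a call lost without MSC pool 3, without WBM pool 15 (adjusted p = 0.0502) and with the replicate block (adjusted p = 0.314). Endothelial genes summed to 14.1 to 106.9 CPM in MSC, the highest in pool 7, and 68.2 to 86.9 CPM in WBM. Of 13 tested 1 was higher, Emcn, at 10.3 ± 6.48 CPM against 0.515 ± 0.184 CPM, and 3 were lower, with a median of -1.70. Among those lower was Pecam1, at 1.33 ± 1.69 CPM in MSC and 26.9 ± 3.89 CPM in WBM. Cdh5, the cadherin of endothelial cells, was at 0, 0, 4.65, 0, 0.352 and 0 CPM in MSC and 1.02, 0.311, 1.31 and 1.31 CPM in WBM. The 4.65 CPM of MSC pool 7 was 1 count. The 8 skeletal muscle genes summed to 1.757 to 27.9 CPM in MSC and 8.115 to 34.7 CPM in WBM, with overlapping groups. Sox10, which defines Schwann cells, was at 0 in all 6 MSC libraries and at 0.0276, 0.0283, 0 and 0 CPM in WBM, so it was near 0 in both tissues. Of 4 Schwann cell genes tested, S100b, which other cell types also make, was higher (6.60), and Mbp was lower (-6.49, and -8.99 without WBM pool 15).

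Neutrophil genes were lower in MSC in 17 of 17, with a median of -5.16. Camp, the cathelicidin of secondary granules, ranged from 90.00 to 232.3 CPM in MSC, with a median of 158.0, and was at 10270, 14010, 10280 and 10390 CPM in WBM. The groups did not overlap (log2 difference -6.09, SE 0.296, edgeR adjusted p = 2.49e-09). Ltf (lactoferrin) and Ngp differed by -5.51 and -5.34. The summed list stood at 2.60, 2.17, 6.53, 2.66, 1.81 and 2.49% of the WBM level of the same batch in MSC pools 3, 5, 7, 15, 17 and 19. Relative to WBM of its batch, the residue was thus alike in 5 libraries and higher in pool 7. As a share of MSC counts the list took 0.343, 0.308 and 0.437% in batch A and 0.142, 0.0928 and 0.140% in batch C. In WBM it took 10.7, 9.99 and 9.21% in batch A and 4.82% in pool 15, so the shares were lower in batch C in both tissues. Primary granule genes of earlier myeloid cells, such as Mpo (-3.71) and Elane (-4.22, and -3.62 without MSC pool 3 and -5.08 without WBM pool 15), were lower in 8 of 8, with a residue of 2.15 to 16.5%.

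**Figure D5:**
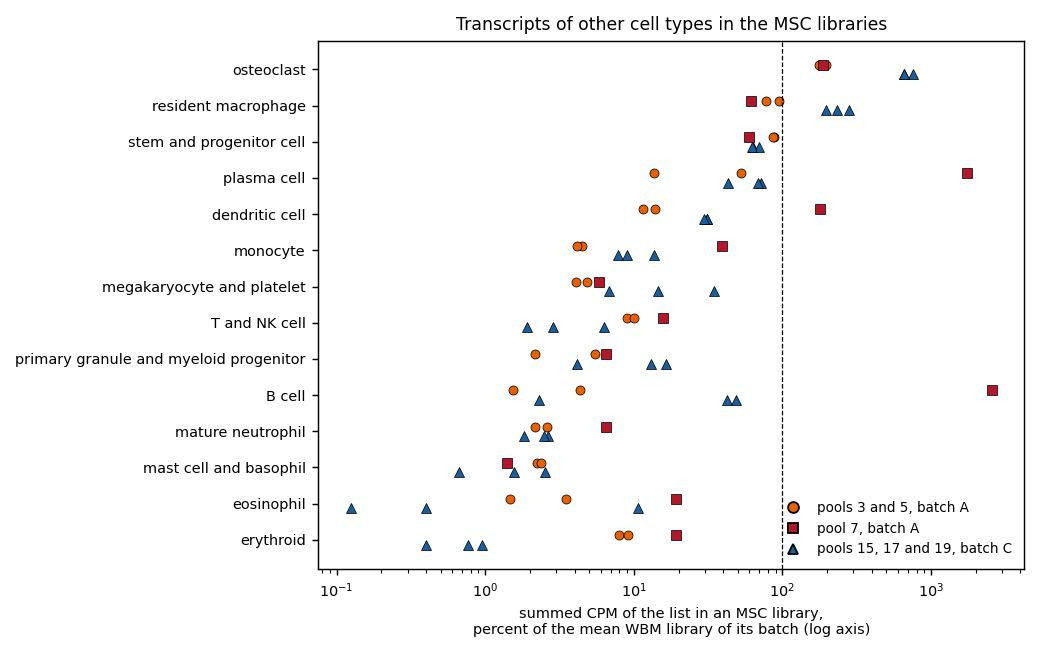
Summed CPM of each other-cell list in each MSC library, as a percent of the WBM level of its batch (log axis). Neutrophil transcripts lie between 1.81 and 6.53%, erythroid transcripts between 0.402 and 19.3%, and B cell and plasma cell transcripts of pool 7 at 2590% and 1750%. In pool 7 the B cell list takes 6.38% of counts, and Ighm alone takes 6.36%.

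Erythroid genes were lower in all 16 tested, with a median of -4.96. Their residue was 7.90, 9.19 and 19.3% in batch A and 0.402, 0.760 and 0.954% in batch C. As a share of MSC counts the list took 0.178, 0.223 and 0.221% in batch A and 0.0757, 0.138 and 0.190% in batch C, while in WBM it took 1.48, 2.06 and 1.59% in batch A and 17.0% in pool 15. The gap between batches was therefore larger in WBM than in MSC. Hba-a2, an alpha globin, was at 389.1, 521.7, 975.9, 249.3, 308.1 and 396.1 CPM in MSC and 3116, 5452, 3486 and 89700 CPM in WBM. No MSC library reached the lowest WBM library (log2 difference -5.00, edgeR adjusted p = 0.00227), and with the replicate block the difference was -3.90 (adjusted p = 0.0695). It was -4.37 without MSC pool 15, -4.39 without MSC pool 17, -5.72 without WBM pool 1, -5.61 without WBM pool 5, -5.70 without WBM pool 7 and -2.72 without WBM pool 15. Counts may be split between Hba-a2 and the nearly identical Hba-a1.

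B cell and plasma cell transcripts varied widely between MSC libraries. B cell genes were lower in 14 of 16 tested, and in 8 of 16 without WBM pool 15. The list residue was 4.32, 1.54, 2590, 2.30, 42.3 and 48.9%. In MSC pool 7 the list took 6.38% of counts, of which its member Ighm, an immunoglobulin heavy chain, took 6.36%. Igkc, the kappa light chain, was at 557.5, 62.6, 56080, 112.4, 763.1 and 791.9 CPM in MSC and 4144, 3928, 1029 and 744.6 CPM in WBM. Jchain, which joins secreted IgM and IgA, was at 54.3, 13.3, 5460, 26.9, 51.6 and 87.9 CPM in MSC and 651.1, 650.4, 192.6 and 352.4 CPM in WBM. In both genes pool 7 was above every WBM library, and in Jchain the other 5 MSC libraries were below every WBM library. Cd74, the invariant chain of antigen-presenting cells, was at 1422 CPM in pool 7 and 23.2 to 67.1 CPM in the others. Ly6c2, a surface protein of monocytes and plasma cells, was at 2212 CPM in pool 7 and 8.44 to 69.1 CPM in the others.

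The plasma cell list changed with that library. With all libraries 2 of 16 tested were higher and the other 14 passed in neither direction, with a median of -0.02, while without MSC pool 7 there were 3 higher and 8 lower, with a median of -2.95. Jchain differed by -3.22 (edgeR adjusted p = 0.000797) without pool 7 and had an adjusted p of 0.999 with it, and differed by 1.84 (adjusted p = 0.495) without WBM pool 15. The members higher with all libraries were Sdc1 and Txndc5. Sdc1, syndecan 1, ranged from 248.3 to 422.4 CPM in MSC, with a median of 343.9, against 10.6, 7.63, 6.57 and 4.31 CPM in WBM, with no overlap (log2 difference 5.44, SE 0.373, edgeR adjusted p = 3.73e-08). Txndc5, a protein disulfide isomerase, was at 1320 CPM in pool 7 and 213.0 to 335.1 CPM in the other 5 MSC libraries, against 116.7, 76.1, 65.7 and 35.6 CPM in WBM.

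Members of a few other lists also went against their list. The resident macrophage list stood at 95.0, 77.5, 61.9, 283, 234 and 197% of WBM, although 8 of 11 tested were lower. Its defining members C1qa, Adgre1 (F4/80) and Cd5l were at 0.658, 0.427 and 0.08904 CPM on average in MSC and 27.6, 15.8 and 15.2 CPM in WBM. Those that were higher were Axl, a receptor of GAS6, at 116.1 ± 58.4 CPM against 16.00 ± 10.6 CPM (log2 difference 2.88, as above), and Slc40a1, the iron exporter ferroportin, at 182.7 ± 34.8 CPM against 121.0 ± 41.2 CPM with overlapping groups. The call of Slc40a1 (edgeR adjusted p = 0.0467) was lost without MSC pool 17 or 19 or WBM pool 1, 5 or 15, and with the replicate block (adjusted p = 0.185).

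The osteoclast list stood at 177 to 757% of WBM, with the protease Ctsk (cathepsin K) higher by 4.21 and Acp5, the acid phosphatase of osteoclasts, lower (-4.16, and -3.47 without MSC pool 5 and -5.62 without WBM pool 15). Calcr, Ocstamp and Dcstamp, defining osteoclast genes, were at 0 in all 6 MSC libraries and at 0.006901, 0.0688 and 0.172 CPM on average in WBM, so they were near 0 in both tissues. The stem and progenitor list stood at 59.5 to 87.5%. Of its 12 members tested, 3 were higher and 4 lower, with a median of -0.71. Those that were lower were Kit, Flt3, Gata2 (-4.47, and -3.35 without WBM pool 15) and, named after its values were seen, Myct1 (-3.79, edgeR adjusted p = 0.0487). The difference of Myct1 was -4.94 without MSC pool 7, -5.55 without MSC pool 17 and -2.77 without WBM pool 15, and its call was lost without MSC pool 3, 5 or 15 or any WBM library, and with the replicate block (adjusted p = 0.242). Hoxa9 (3.67), Procr (4.19) and Meis1 (1.25) were higher, and the call of Meis1 was lost without MSC pool 3 or any WBM library, and with the replicate block (adjusted p = 0.345). Cd34 was at 28.4 ± 8.06 CPM in MSC and 27.9 ± 4.400 CPM in WBM (log2 difference -0.16, SE 0.25, edgeR adjusted p = 0.623).

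The remaining blood lists had more members lower than higher in MSC. T and NK cell genes were lower in 12 of 14 tested, and in 8 of 14 without WBM pool 15. Gzma, granzyme A, was at 0 in all 6 MSC libraries and at 5.13, 5.12, 5.88 and 11.6 CPM in WBM. Its WBM mean was 132-fold the same pooled limit of 3 counts. Mast cell and basophil genes were lower in 6 of 6, with a residue of 0.671 to 2.53%, and Hdc, the histamine-forming enzyme, differed by -5.56. Monocyte genes were lower in 8 of 10, among them Ccr2 (-4.92, and -3.72 without WBM pool 15), with a residue of 39.3% in MSC pool 7 and 4.14 to 13.7% in the others, and megakaryocyte genes in 9 of 12, with a residue of 34.9% in MSC pool 19 and 4.09 to 14.6% in the others. Dendritic cell genes were lower in 7 of 10, and in 5 of 10 without WBM pool 15. Their summed level in MSC pool 7 was nevertheless 180% of WBM, against 11.6 to 31.3% in the other 5 libraries. Eosinophil genes were lower in 7 of 8, and in 5 of 9 tested without WBM pool 15, with a residue of 0.124 to 19.3%.

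Cell division genes were lower in MSC. All 14 genes of G2 and mitosis were lower, with a median of -4.33, and 13 of 14 S phase genes, with a median of -3.18. Mki67, present in cycling cells, was at 14.3, 12.8, 60.4, 9.74, 53.8 and 75.1 CPM in MSC and 753.9, 640.4, 832.2 and 1017 CPM in WBM. No MSC library reached the lowest WBM library. Early response genes, which also respond to tissue handling, were higher in 5 of 18 and lower in 3, with a median of 0.37. Fos ranged from 2616 to 7995 CPM in MSC, with a median of 5514, against 1039, 1013, 1387 and 2554 CPM in WBM, and Klf2 was lower (-2.50) with overlapping groups. The part of handling was not tested. Mitochondrially encoded genes were higher in 2 of 9 and lower in none, and without WBM pool 15 the only call was 1 that was lower.

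Among the 12 genes with the smallest p that were higher were also Fzd1, Islr and Sulf1. Fzd1, a WNT receptor, was at 157.8 ± 39.8 CPM in MSC (SD, n = 6) and 0.203 ± 0.0427 CPM in WBM (SD, n = 4). Sulf1, which removes sulfate from heparan sulfate, was at 210.3 ± 37.00 CPM and 0.319 ± 0.101 CPM, and Islr, a leucine-rich repeat protein of stromal cells, differed by 10.03. Among the 12 that were lower, Cd177 of the neutrophil surface was at 18.6 ± 5.98 CPM and 1181 ± 336.0 CPM, and Coro1a, an actin regulator of blood cells, differed by -5.56. Lin28a, an RNA-binding protein, was at 0, 0.493, 0, 0.272, 0.235 and 0.329 CPM in MSC and 63.2, 81.8, 60.2 and 54.3 CPM in WBM (log2 difference -7.88, SE 0.429, edgeR adjusted p = 5.22e-09), and differed by -8.87 without WBM pool 15.

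Within batches the markers kept their direction. In batch A, Cxcl12 averaged 26200 CPM in MSC against 13.8 CPM in WBM, and S100a8 1034 against 18190 CPM. In batch C the levels were 42860 against 76.7 CPM and 227.6 against 6537 CPM. The tissue difference itself differed between batches, by an interaction term, for 864 genes, 5.03% of those tested, and for 13 of the 182 secretome genes. All of these rest on the single WBM library of batch C. Igfbp5, an IGF binding protein, was at 0.221, 0.396 and 0.301 CPM in WBM of batch A and 7.24 CPM in pool 15, and at 4579, 1654, 1915, 1485, 1525 and 1953 CPM in MSC. Its interaction, batch C minus batch A, was -5.25 on the log2 scale (edgeR adjusted p = 0.00217). Des, Pappa, Ebf3 and Foxc1 were likewise highest in pool 15 among the WBM libraries. Hp and Apoe were higher in MSC of batch C than of batch A and lowest in pool 15 among the WBM libraries. The count of 864 fell to 344 without MSC pool 3, 335 without MSC pool 5, 311 without MSC pool 17, 316 without WBM pool 1 and 362 without WBM pool 7, and rose to 1386 without MSC pool 15.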

How the data were processed

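RNA was taken from unsorted or sorted marrow with an RNeasy kit, treated with DNase I and prepared for strand-specific sequencing (NEBNext Ultra II Directional) according to the labels. What the authors deposited is 1 table of estimated counts, already whole numbers, for 56332 genes, 47712 of them with an Ensembl identifier. The submitters' processing notes name FastQC 0.11.5, Salmon and mm10, and the annotation release is not given in the sources used here. Repeated lines of the table never differed. Gene names, positions and exon lengths came from GENCODE M21 (GRCm38) and promoters from RefSeq (GRCm38.p6).

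Genes were kept by filterByExpr with a minimum count of 10 and scaled by the trimmed mean of M-values (TMM). Batch and tissue were fitted by edgeR's quasi-likelihood test (edgeR 4.0.16, R 4.3.3), with Benjamini-Hochberg adjustment over all 17169 genes tested and a threshold of 0.05. The SE is the size of the log2 difference divided by the square root of F. Library totals set the precision, and pool 7 of MSC is the least precise. The procedure was tested on simulated counts in which few genes differed between the tissues. In the data many more genes differed and by larger amounts, a setting that the simulation did not cover. Alternatives used DESeq2 1.42.0, limma 3.58.1 (voom), other scalings and filters, single batches, a replicate block and each library left out.

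Mouse pool labels mark the same mice, so pools 5, 7 and 15 pair the tissues. Deviations of the paired libraries from their group means, taken without regard to batch, correlated at 0.052, 0.072 and 0.253. Within batch A the correlations were 0.068 for pool 5 and 0.044 for pool 7. Pool 15 gave the only WBM library of batch C, so its value cannot be told apart from batch. The result of 1 gene that was measured and tested is left out. Near-identical genes (globins, immunoglobulins, ribosomal pseudogenes) have uncertain counts. Genes were named by rule: the 3 markers, the 12 higher and 12 lower genes with the smallest p, in each list the first 5 members, the 3 with the smallest p and up to 4 that went against the list, the 10 genes with the largest share of counts in each tissue, and for the interaction the 5 genes with the smallest p and up to 12 list members. The members, lists and motifs were chosen with earlier results of these data known, and the EBF motif was shortened by its last letter after shares for the longer form had been seen.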

Additional observations from a re-analysis of the deposited data

Results flagged for a closer look

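Library shares and gene levels were tested for a single value far from the rest of its tissue (Dixon's test, 176 groups of libraries), which chance flags in about 1 of 20 groups. In the MSC library of pool 7 the percent of counts was highest for ribosomal RNA-like transcripts (37.1), immunoglobulin genes (14.5), the B cell (6.38), plasma cell (5.19), monocyte (0.189) and dendritic cell lists (0.102), and lowest for the secretome (7.23) and osteoclast lists (0.0109). In summed CPM pool 7 was lowest for neither list. The secretome was at 108100 CPM there and 103200 in pool 5, and the osteoclast list at 162.6 and 151.9 CPM. In MSC pool 7 Cdh5 was flagged at 4.65 CPM, which was 1 count. Also there, S100a8 (2031 CPM), Col1a1 (16190), Col1a2 (16980), Bglap (780.7), Igkc (56080), Jchain (5460), Ly6c2 (2212), Cd74 (1422), Txndc5 (1320) and Hba-a2 (975.9) were far above the other MSC libraries in CPM. These levels depend on the TMM factor, which was 0.6763 in pool 7, 1.4235 in pool 5 and 1.3259 in pool 3. As an unscaled share of counts, haemoglobin genes took 0.212% in pool 7, 0.214% in pool 5 and 0.17% in pool 3. In other MSC libraries, values far above the rest were those of the megakaryocyte list in pool 19 (0.0121%), Igfbp5 in pool 3 (4579 CPM), Cxcl1 in pool 15 (664.8 CPM), and Flt3 and Ccl4 in pool 17 (0.764 and 0.411 CPM).

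In the WBM library of pool 15 the erythroid list (17.0%) and Hba-a2 (89700 CPM), Cxcr4 (532.7), Osm (874.5), Ebf1 (383.3), Stc1 (62.5), Ccl4 (62.1), Gzma (11.6) and Igfbp5 (7.24) were far above the other WBM libraries. Il34 (0.462 CPM) and Chrdl1 (0.385 CPM) were flagged there too, from few counts. In WBM pools 1, 5, 7 and 15 the counts were 6, 4, 6 and 6 for Il34 and 4, 4, 4 and 5 for Chrdl1. Camp was far above the others in WBM pool 5, at 14010 CPM.

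The difference between tissues differed between batches by the interaction term (edgeR) for 17 of the genes named. On the log2 scale, batch C minus batch A, it was positive, so that the MSC minus WBM difference was higher in batch C, for Acp5 (3.69), Mbp (3.49), Plau (3.27), Apoe (3.13), Hp (2.56), Tgfb1 (1.88), Kit (1.81) and Sdc1 (1.59). It was negative for Des (-5.56), Hba-a2 (-5.45), Igfbp5 (-5.25), Hba-a1 (-4.03), Mmp8 (-3.21), Pappa (-3.13), Ccr2 (-2.80), Foxc1 (-2.69) and Ebf3 (-2.03). Batch C holds 1 WBM library, so batch and that library cannot be told apart.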

How the results depend on the processing

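Of 2675 values recomputed for 134 named genes, 2553 kept their direction and side of the threshold, 77 fell short of it, 16 passed it and 29 changed sign. Over all genes, 3959 were higher and 4481 lower in MSC, and leaving out 1 library gave 3629 to 4594 and 3887 to 4555. With the replicate block over pools 5, 7 and 15 the counts were 2400 and 2764, with 6 libraries in the fit; beside the calls given in the text, it changed no other call of a named gene. Batch C alone, with 1 WBM library, gave 2214 lower genes, 804 of them by at least 3 on the log2 scale against 1749, and without the count filter 2795 genes were lower by at least 3. Genes that were higher made up 46.9% of calls, and 57.0% in batch C alone. With total counts in place of TMM the median of all genes moved from -0.22 to 0.01. Interaction calls numbered 864, 585 without the filter, 1392 by DESeq2 and 311 to 1386 with 1 library left out. Leaving out both libraries that stand apart, an alternative chosen after seeing the data as were 2 further ones on shares, gave 4360 higher and 3655 lower.

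Signs changed only for genes with an adjusted p above 0.05 with all libraries. Cd34 was at 0.05 with total counts and with no batch term, and ranged from -0.32 to 0.03 with 1 library left out, the highest without MSC pool 7. Fn1 was at 0.08 with total counts, 0.18 with no batch term, 1.10 (edgeR adjusted p = 0.0235) in batch C alone, 0.04 and 0.14 with the replicate block as a fixed and a random term, and -0.64 to 0.47 with 1 library left out (0.47 and 0.15 without MSC pools 5 and 7, 0.37 without WBM pool 1). Jchain was at 0.00 without the filter, 1.02 with no batch term, 1.88 in batch A, 0.01 by DESeq2, and -3.22 to 1.84 with 1 library left out (0.26 to 0.49 without MSC pool 3, 5, 15, 17 or 19, 1.84 without WBM pool 15). Igkc was at -0.57 in batch C, -2.21 and -1.53 with the replicate block, -2.19 to 2.61 with 1 library left out, the lowest without MSC pool 7, and -3.10 without both libraries that stand apart. Ly6c2 ranged from -3.09 to 0.12 with 1 library left out (0.12 and 0.11 without MSC pools 3 and 5), and Cd74 was at 0.01 in batch A. The cause was not tested. Genes near the count limit of the MSC library of pool 7 are measured least precisely.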
